A study of Mus musculus with 8 samples.

Results

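Genes of the Notch pathway were examined in mSSC-YFP, a murine line of immortalized spleen stromal cells that carries YFP and was grown in serum-containing medium. The genes were chosen by name. Of 10 names, covering Notch receptors, their ligands, target genes and the DNA-binding mediator Rbpj, 6 had a row in the authors' deposited table of 12589 genes: Notch1, Notch2, Notch3, Jag1, Hes1 and Rbpj. No row was found for Jag2, Dll1, Hey1 and Heyl, which are not analysed here, and nothing can be said about their level. The study compared 4 samples treated for 48 h with BMS493, an inhibitor of retinoic acid signaling, with 4 samples treated with its vehicle DMSO. Both groups came from the same line, and no other genotype or agent is named in the labels. The labels do not say whether the samples were separate cultures.

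The measurement used is the authors' mean log2 normalized expression of each gene. Its header names no sample or group, and it was read here as a mean over all samples of both treatments. It is a single value per gene. The values of single samples, the depth of each library and the spread between replicates are therefore unknown here, and each level below is given without an error. Whether BMS493 changed a Notch gene was not analysed here, since the only columns that bear on it are the authors' own comparison, which was not used. What follows is where the Notch genes stood in these cells, averaged, on that reading of the header, over both treatments.

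Notch receptors are single-pass membrane proteins that are activated by ligands of the Jagged and Delta-like families on a neighbouring cell. Ligand binding exposes the receptor to cleavage by an ADAM protease and then by γ-secretase, and the freed intracellular domain enters the nucleus, where it joins the DNA-binding protein Rbpj and a Mastermind coactivator to switch on genes such as those of the Hes and Hey families. Without that domain, Rbpj can hold the same genes in check through corepressors. In the spleen, Delta-like 1 on stromal cells engages Notch2 on B cells and is needed for marginal zone B cells.

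The cells were first checked against marker genes of the cell types a spleen culture could hold. All 10 stromal fibroblast markers had a row, and 8 of them lay above the median of all genes per kilobase. Among these was Col1a1, which encodes a chain of type I collagen, with a mean log2 expression of 13.29. Pdgfra and Nt5e lay below that median, with log2 levels per kilobase of 1.92 and -2.41. No row was found for any of 5 B cell markers, 4 T cell markers or the pan-haematopoietic gene Ptprc. Of 4 macrophage markers Cd68, the gene of a lysosomal protein, had a row, with a mean log2 expression of 1.36. Of 8 endothelial markers 3 had a row (Flt1, Kdr and Pecam1), with log2 levels per kilobase from -2.17 to 0.40, all below the median of all genes. Of 4 epithelial markers, Cdh1, the gene of the adhesion protein E-cadherin, stood out with a mean log2 expression of 8.03, whereas Krt8 and Krt18 had 1.55 and 0.31 and no row was found for Epcam. The bearing of Cdh1 on the Notch values was not tested.

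Levels of different genes can be compared only after division by length, because a longer transcript yields more fragments. The length used was the union of all annotated exons of the gene, and the log2 of that length in kilobases was subtracted from the authors' mean. On this scale the order of the 6 genes was Hes1, Notch2, Rbpj, Jag1, Notch1 and Notch3, with log2 levels per kilobase of 6.38, 3.78, 3.00, 1.69, 1.02 and 0.28. The median over 12363 genes with a known length was 2.85, with lower and upper quartiles of 1.42 and 4.15. Thus 3 of the 6 Notch genes, Hes1, Notch2 and Rbpj, lay above the median and 3, Jag1, Notch1 and Notch3, lay below it.

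**Figure D1:**
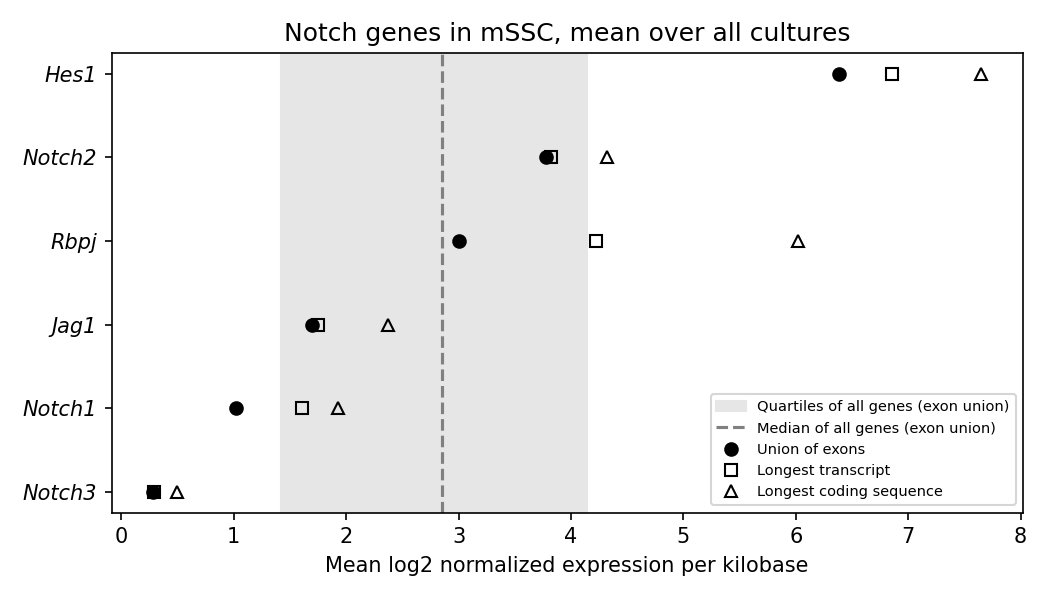
The 6 Notch genes with a row, ordered by level, with the mean log2 normalized expression per kilobase on the x axis for each of 3 annotated lengths (filled circle, union of exons; square, longest transcript; triangle, longest coding sequence); the grey band and dashed line give the range between the quartiles and the median of all genes for the union of exons. Hes1 lay highest under each length, whereas Rbpj moved from 3.00 to 6.02 and passed Notch2.

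Among the receptors, Notch2 had the highest level. Its gene lies on chromosome 3 from 98013527 to 98150361 of GRCm38, the assembly also called mm10, and its mean log2 expression was 7.21 before length was considered. Per kilobase the log2 level of 3.78 stood at percentile 68.8 of all genes, which became 60.9 with the longest transcript. With the longest coding sequence, among genes that have one, it was 45.2, below the median. Notch1 and Notch3 stood far lower with the union of exons, at percentiles 19.9 and 13.1.

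Notch1, on chromosome 2 from 26457903 to 26516663, had a mean log2 expression of 4.85. The annotated exons of Notch1 add up to 14232 bases, against 9488 bases for its longest transcript, so that its log2 level per kilobase was 1.02 with the former and 1.60 with the latter. Notch3, a receptor best known from vascular smooth muscle and pericytes, lies on chromosome 17 from 32120820 to 32166852 and had the lowest mean of the 6 genes, 3.30 on the log2 scale. In these cells the smooth muscle genes Acta2 and Tagln had high mean log2 values of 11.53 and 9.73, while Cnn1, Mcam and Cspg4 had 4.47, 4.35 and 2.41 and no row was found for Myh11, Des and Rgs5.

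Expressed as a ratio of levels per kilobase, Notch2 was 6.78-fold above Notch1 and 11.3-fold above Notch3, and Notch1 was 1.67-fold above Notch3. Of the summed level per kilobase of these 3 receptors, Notch2 made up 80.9%, Notch1 11.9% and Notch3 7.16%. With the longest transcript in place of the union of exons the share of Notch2 was 76.8%, and with the longest coding sequence it was 79.3%. The order of the 3 receptors was the same under each length. No row was found for the remaining receptor, Notch4, which is not analysed here.

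Jag1, which encodes the ligand Jagged1, lies on chromosome 2 from 137081456 to 137116644. It was the only ligand of the Jagged or Delta-like families with a row, and Dll3 and Dll4 were also without one. The mean log2 expression of Jag1 was 4.24. Its log2 level of 1.69 per kilobase stood at percentile 28.9 of all genes, 1.60-fold above Notch1 and 4.24-fold below Notch2. Against Notch1 this difference shrank to 0.15 on the log2 scale with the longest transcript, so that these neighbours in the order were nearly level under that length, and with no spread between samples they cannot be separated.

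Hes1, on chromosome 16 from 30064384 to 30067796, encodes a transcriptional repressor of the basic helix-loop-helix family and is a classical target of Notch, although other pathways can also drive it. It had the highest level of the 6 genes on both scales, with a mean log2 expression of 7.41 and a log2 level per kilobase of 6.38, at percentile 95.7 of all genes. Per kilobase it stood 6.08-fold above Notch2, 41.2-fold above Notch1 and 25.8-fold above Jag1. Its percentile was 95.8 with the longest transcript and 93.9 with the longest coding sequence. Of the Hes and Hey genes outside the chosen names, Hes6 had a row, with a mean log2 expression of 4.82 and a log2 level per kilobase of 3.97. No row was found for Hes2, Hes3, Hes5, Hes7 and Hey2.

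Rbpj, on chromosome 5 from 53466152 to 53657362, encodes the protein through which all Notch receptors reach DNA. Its mean log2 expression was 6.68, and its log2 level per kilobase of 3.00 was close to the median of all genes, at percentile 53.2. This value depended most on the length chosen. The exons of Rbpj cover 12750 bases, but its longest transcript has 5485 and its longest coding sequence 1578, which gave log2 levels of 4.22 and 6.02 and percentiles of 69.0 and 77.4. Under both of these lengths Rbpj stood above Notch2, whereas with the union of exons Notch2 was 1.71-fold above Rbpj, so that no order of this pair can be given. The remaining 14 of 15 pairs among the 6 genes kept their order under each length. Rbpj also has 2 annotated processed pseudogenes, on chromosomes 4 and 6. The authors counted only uniquely mapped reads, and how many reads of Rbpj are shared with these copies was not tested.

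**Figure D2:**
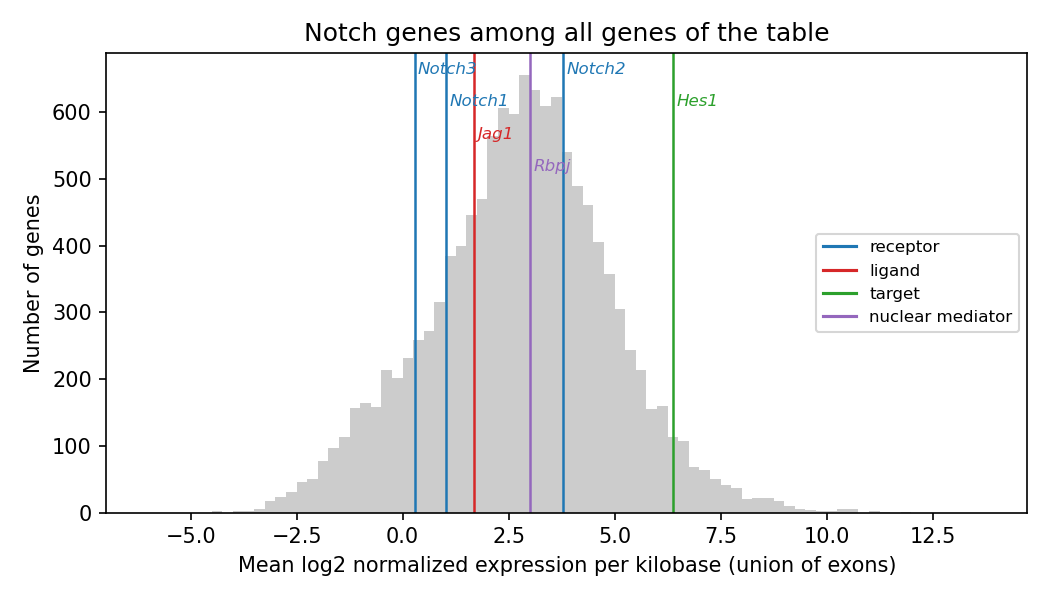
Histogram of the mean log2 normalized expression per kilobase (x axis, union of exons) over 12363 genes, with the number of genes on the y axis and a vertical line for each Notch gene, colored by role. Notch3, Notch1 and Jag1 lie on the lower flank, Rbpj and Notch2 near the center, and Hes1 in the upper tail at percentile 95.7.

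The bases before annotated transcription starts were also read, to see whether the recognition letters of Rbpj occur there. Of the 6 genes, 5 had 1 or more entries in the RefSeq promoters of GRCm38.p6, 6 windows in all, each of 250 bases before a RefSeq start. For Rbpj and Notch1 these starts lie inside the gene as GENCODE draws it, downstream of its outermost 5′ end. Which start these cells use was not tested. The starts read for Jag1 and Notch2 also lie downstream of the outermost 5′ end, with 124 and 11 annotated exon bases in the window. The letters TGGGAA, the core that Rbpj binds, were searched on both strands. They occurred in the 2 overlapping windows of Rbpj itself and in none of the windows of Notch1, Notch2, Notch3 and Jag1. The only match in the second Rbpj window is the same site as the other-strand match of the first. Hes1 had no entry among these promoters, so the bases before it were not searched. For comparison, 21.6% of 32851 such windows of all genes hold these letters on either strand. A share of 1.28% holds them on both, as the first Rbpj window does. With 6 windows read, the share of windows like this one is a description and not a test. The part of that window that lies outside annotated exons, at chr5:53590096-53590213 on the plus strand and within the span of the Rbpj gene, is shown because it carries the match on the strand of the gene, in capitals.

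Rbpj upstream: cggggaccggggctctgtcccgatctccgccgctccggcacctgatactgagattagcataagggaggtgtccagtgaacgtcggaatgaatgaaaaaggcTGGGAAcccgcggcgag

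The match begins 149 bases before that RefSeq start, and the one on the other strand begins 65 bases before it, within an annotated exon of Rbpj. A match of letters is not a measured binding site, and these data hold no measurement of binding.

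A wider list of 70 pathway genes, grouped by role, was read in the same way. Of these, 58 had a row, and 32 of the 58, or 55.2%, lay above the median of all genes per kilobase. Their median log2 level was 3.11, against 2.85 for all genes.

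Of the genes that process the receptor, all 10 had a row and 5 lay above the median. Adam10, the protease that makes the ligand-dependent cut, had a mean log2 expression of 7.89 and a log2 level per kilobase of 5.60. Of the γ-secretase subunits, Ncstn stood at 5.78 per kilobase on the log2 scale, above Psen2 at 2.25, Aph1a at 2.39, Aph1b at 1.42 and Psenen at 1.37. Aph1c was the lowest of the group at -1.16.

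Sugar transfer to the receptor was represented by 4 of 5 genes. Poglut1 and Pofut1, which add O-glucose and O-fucose to the receptor, had log2 levels per kilobase of 3.92 and 2.66. The Fringe enzymes extend O-fucose and thereby change which ligand a receptor prefers. Lfng and Rfng stood at 3.69 and 2.94 per kilobase, both above the median of all genes, and no row was found for Mfng. Rfng fell below the median with the longest transcript, at percentile 43.3, and with the longest coding sequence, at 44.0, as it did without division by length, at 36.7, and among genes with a deposited mean of at least 1, at 48.7.

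Ligand endocytosis, the pull on the receptor that starts its activation, was the group with the lowest median, 0.42 per kilobase on the log2 scale over 5 genes. Only Mib1, the ubiquitin ligase that acts on Jagged and Delta-like ligands, lay above the median of all genes, at 3.34. Its relative Mib2 stood at 2.19, and Neurl1a, Neurl1b and Neurl3 at 0.42, -2.18 and -0.76. Among 10 genes of receptor turnover, 4 lay above the median. The ubiquitin ligase gene Nedd4 had the highest level of the whole list, with a mean log2 expression of 11.39 and a log2 level of 7.94 per kilobase. Numb, an inhibitor of Notch, and Itch, a ligase that marks the receptor for degradation, stood at 3.12 and 3.25 per kilobase, and Fbxw7, which promotes loss of the intracellular domain, at 1.36.

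In the nucleus, 5 of 8 coactivator genes and 8 of 13 corepressor genes lay above the median of all genes. The Mastermind genes differed among themselves, with log2 levels per kilobase of 4.05 for Maml1, 2.77 for Maml2 and -0.13 for Maml3. Of the corepressors that can join Rbpj, Ncor1 stood at 4.62 and Spen at 2.25. Ctbp1 and Hdac2 were the highest of that group, at 5.70 and 5.25. The median log2 level per kilobase was 3.11 for coactivators and 3.34 for corepressors, a difference smaller than the range within either group.

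The group of other targets had the highest median of all, 6.09 per kilobase on the log2 scale, over 6 of 12 genes with a row. These included Ccnd1 at 7.02, Id1 at 6.59, Myc at 6.23 and Cdkn1a at 5.94, genes of growth control and differentiation that many other pathways regulate, and Sox9 at 2.80. Nrarp, a feedback inhibitor of Notch, had no row. Among the other ligands, Dlk1, a membrane protein related to Delta that lacks the domain by which Delta-like ligands bind the receptor, had a mean log2 expression of 7.66 and a log2 level of 5.16 per kilobase, well above Jag1 at 1.69. Its relative Dlk2 stood at 0.60.

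**Figure D3:**
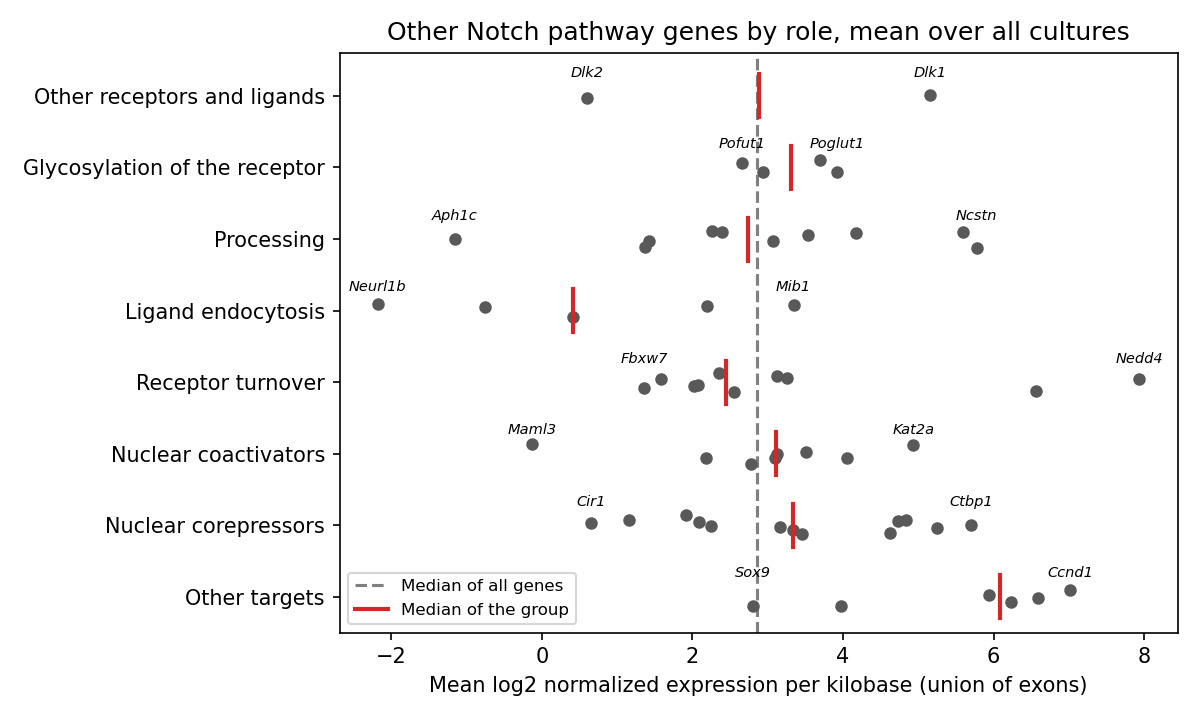
Mean log2 normalized expression per kilobase (x axis, union of exons) of 58 further Notch pathway genes, each a point, in rows by role, with the median of each group in red, the median of all genes as a dashed line, and the lowest and highest gene of each group named. Ligand endocytosis has the lowest median, 0.42, and the other targets the highest, 6.09.

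As to annotation, exons of Notch1 and Notch3 overlap transcripts on the opposite strand, over 1068 and 414 bases for 2 neighbours of Notch1 and over 488 bases for 1 neighbour of Notch3. Those of Notch2 share 541 bases with an unclassified transcript on the same strand. The library kit marked strand, but whether reads were counted by strand is not given in the sources used here, so reads from these stretches could have been assigned to either gene or to none.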

How the data were processed

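RNA-seq of mSSC cells was read from the authors' deposited table. According to the methods, the authors prepared stranded mRNA libraries, aligned reads to mm10 with STAR (2.3.0e in the submitters' processing notes), used Rsubread to count reads with a unique alignment over the Ensembl annotation, and normalized by the weighted trimmed mean of M-values. The column used is the authors' mean log2 normalized expression, read here as a mean over all samples and deposited with decimal commas. Added over genes as powers of 2 it gave 989369, near the total of a CPM scale. A prior count and a filter on low values are not given in the sources used here. The remaining 4 columns hold the authors' own comparison of BMS493 with DMSO (fold change, t, p and adjusted p) and were not used. The planned test between treatments was therefore not run. The labels describe amplification for arrays in place of the library preparation.

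Lengths came from GENCODE M21 (GRCm38) by symbol, 11765 directly and 598 through 1 older symbol, which gave a length to 98.2% of genes. Another 19 symbols had been turned into dates. A percentile is the share of genes with a lower level. For the longest coding sequence, the genes compared are those that have a coding sequence. Lengths are those of the annotation, not of the transcripts these cells make. The authors counted reads over an Ensembl release, so the exons they counted may differ from those measured here. Python 3.11.15 with numpy 2.4.6, pandas 2.3.3 and matplotlib 3.10.9 was used, and the steps for length, percentile and motif were tested on simulated data. Members and lists were chosen with earlier results of these data known, and the motif after the levels had been read. All genes of the rule with a row are named, and those of the wider list by role, of which some are not reported here.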

Additional observations from a re-analysis of the deposited data

How the results depend on the processing

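With the longest transcript in place of the union of exons, the median log2 level per kilobase of the 6 Notch genes was 2.78, and with the longest coding sequence 3.34, against 2.35. Each of these lengths kept the order of 14 of 15 pairs, and the pair that turned was Notch2 and Rbpj, which follows from the shorter length given to Rbpj. The number of Notch genes above the median of all genes was 3, and also 3 without division by length, when genes under a deposited mean of 1 were left out of the reference, and with the longest transcript. With the longest coding sequence, against the genes that have one, it was 2, since Notch2 fell to percentile 45.2. The 2 counts under other lengths were chosen after seeing the data. For the wider list the count of 32 became 36 without division by length and 31 without the genes under a deposited mean of 1. No paired analysis was possible because each gene has 1 mean value and no values of single samples. For the same reason another normalization, a filter on counts and leaving out each sample were not run, and the limit that depth sets is unknown.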
